A study of Mus musculus with 2 samples.

Results

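Liver basophils were the 61 cells that the deposited cell table names bas, out of 11929 cells with a cell name and a genotype. TG mice gave 45 of them among 4647 cells and WT mice gave 16 among 7282 cells, so every value for WT basophils rests on 16 cells. The 61 cells were the whole of 1 cluster, number 25 of 30, and no cell of another name lay in it. CD45+ immune cells of the liver were captured on a microwell platform that reads polyadenylated RNA and 49 barcoded antibodies in the same cell, each molecule counted once by its unique molecular identifier (UMI). TG mice carried the dnTGFβRII transgene, in which the CD4 promoter of the mouse drives a dominant negative form of the human type II receptor for TGF-β in T cells, and they serve as a model of autoimmune cholangitis. The WT mice were wild type. Both were C57BL/6 and, by the labels, 10 weeks old, whereas the published methods state that younger mice were used. There was 1 library per genotype, and each was loaded with a second genotype: TG cells were captured together with cells of IFN-γ ARE-Del-/- mice, and WT cells together with cells of P40-/-IL-2Ra-/- mice. Genotype and capture library therefore cannot be told apart, no test between genotypes was possible, and each interval below is a 95% interval that covers counting error only.

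Basophils are rare granulocytes that mature in the bone marrow and circulate in blood. They carry the high-affinity receptor for IgE, whose crosslinking by antigen makes them release histamine, proteases, leukotrienes and cytokines, above all IL-4. They respond to IL-3 and need the transcription factor GATA2. Mast cells share much of this equipment but live in tissue, carry Kit and store another set of proteases.

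The TG basophils held a median of 3408 UMIs (1399 to 9360) and 1455 genes per cell, and the WT basophils 2557.5 UMIs (1167 to 5219) and 1162.5 genes. Their summed profiles held 157670 and 43382 UMIs. The median share of mitochondrial UMIs was 2.14% in TG and 3.13% in WT basophils, against 5.17% and 6.04% in the other named cells. Levels below are UMIs of a gene per 1000000 UMIs of the summed profile (CPM), and a log2 ratio was formed after adding 0.5 UMI to each sum. Doublet calling marked 1 TG basophil and no WT basophil, and no cell number occurred in both sets of basophils.

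The 4 marker genes went with the name, but the class was made from these same cells, so they describe it and test nothing. Ms4a2 encodes the β chain of the IgE receptor and was read in 41 of 45 TG and 14 of 16 WT basophils. Fcer1a, which encodes the IgE-binding α chain, was read in 36 and 11 cells, Cpa3, the granule carboxypeptidase, in 32 and 12, and Mcpt8, the basophil serine protease, in 33 and 8. In TG basophils these markers stood at 1161, 901, 1224 and 3634 CPM, and in WT basophils at 991, 692, 715 and 2904 CPM. In all 4602 other TG cells together there were 3 UMIs of Ms4a2, 4 of Fcer1a, 8 of Cpa3 and 14 of Mcpt8. At least 3 of the 4 markers were read in 34 TG and 11 WT basophils, and in no named cell outside the class. A single WT basophil had none of the 4. That cell held 3543 UMIs, among them 4 of Gata2, 31 of Ccl3 and 6 of Il6, and its CD49b, CD9 and CD16/CD32 antibody values lay within the range of the other basophils.

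Most markers of neighbouring lineages were sparse, with the exception of some monocyte genes. The 5 mast cell genes that the files list (Kit, Cma1, Tpsb2, Tpsab1 and Mrgprb1) had no UMI in basophils of either genotype. Of 7 eosinophil genes, the peroxidase gene Epx and 4 others were at 0, and Siglecf (4 and 2 UMIs) and the eotaxin receptor gene Ccr3 (12 and 4 UMIs) were read. The platelet list was at 0 except for Itga2b, the integrin αIIb chain, with 68 and 20 UMIs. The 10 neutrophil genes summed to 1142 CPM in TG and 761 CPM in WT basophils, against 219632 CPM in the TG cells named Neu. The 8 monocyte genes summed to 1877 CPM in TG and 1867 CPM in WT basophils, near the sum in the TG cells named Mono (1814 CPM) and in the other TG cells (1857 CPM). In TG basophils 230 of these 296 UMIs were of Plac8 and 57 of Ccr2, and Cd14, Chil3, Fn1 and Vcan were at 0. The Kupffer cell and macrophage list had 7 of 8 genes at 0 in TG and 8 of 8 in WT basophils.

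Because the markers separate the class so sharply, the sequence around the start of each gene is shown for the markers and for Prss34, the gene of a second basophil protease. The windows are 300 bases long, written 5′ to 3′ along the gene from RefSeq on GRCm38.p6, and capitals mark AGATAA or its reverse complement TTATCT, a form of the sequence that GATA factors bind. Cpa3 lies on chromosome 3, Fcer1a on 1, Mcpt8 on 14 and Ms4a2 on 19, all on the minus strand, and Prss34 on chromosome 17 on the plus strand.
Ms4a2, chr19:11623670-11623969, minus strand: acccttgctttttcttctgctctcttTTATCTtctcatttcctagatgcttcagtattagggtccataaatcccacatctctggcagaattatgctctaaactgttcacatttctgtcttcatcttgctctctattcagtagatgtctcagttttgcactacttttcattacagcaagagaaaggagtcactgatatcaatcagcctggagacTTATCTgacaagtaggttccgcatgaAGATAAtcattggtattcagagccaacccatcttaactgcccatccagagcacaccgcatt
Fcer1a, chr1:173227180-173227479, minus strand: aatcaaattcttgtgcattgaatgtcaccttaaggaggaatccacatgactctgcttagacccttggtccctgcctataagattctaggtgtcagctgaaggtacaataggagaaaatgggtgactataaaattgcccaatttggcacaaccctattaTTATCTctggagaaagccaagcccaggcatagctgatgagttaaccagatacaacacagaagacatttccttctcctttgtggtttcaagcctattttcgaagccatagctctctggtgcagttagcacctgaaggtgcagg
Cpa3, chr3:20242132-20242431, minus strand: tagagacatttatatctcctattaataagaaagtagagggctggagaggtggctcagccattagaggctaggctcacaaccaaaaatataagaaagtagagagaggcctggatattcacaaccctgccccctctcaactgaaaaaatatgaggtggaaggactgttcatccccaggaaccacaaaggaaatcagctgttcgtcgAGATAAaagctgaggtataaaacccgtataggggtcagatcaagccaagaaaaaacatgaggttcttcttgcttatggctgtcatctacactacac
Mcpt8, chr14:56085148-56085447, minus strand: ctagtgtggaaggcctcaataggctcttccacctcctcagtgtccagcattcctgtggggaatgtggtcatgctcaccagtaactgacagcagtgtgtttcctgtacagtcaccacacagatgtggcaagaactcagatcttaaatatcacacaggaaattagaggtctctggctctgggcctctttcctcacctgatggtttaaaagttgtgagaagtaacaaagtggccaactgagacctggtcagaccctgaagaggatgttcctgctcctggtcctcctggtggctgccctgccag
Prss34, chr17:25298144-25298443, plus strand: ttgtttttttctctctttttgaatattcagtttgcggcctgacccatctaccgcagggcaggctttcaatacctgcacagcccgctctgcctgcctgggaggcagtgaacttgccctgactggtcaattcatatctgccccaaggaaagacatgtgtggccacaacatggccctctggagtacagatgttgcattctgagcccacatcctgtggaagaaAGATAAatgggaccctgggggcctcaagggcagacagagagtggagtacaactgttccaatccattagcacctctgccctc

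Searched on both strands, AGATAA occurred 3 times in the Ms4a2 window and once each in those of Fcer1a, Cpa3 and Prss34, and not in that of Mcpt8. Of 32851 windows of this length in the RefSeq table, 11.2% held it. The markers and the 10 highest genes of TG basophils come to 10 different genes, of which 6 held it in at least 1 window, against 12.7% of 27025 genes: C3ar1 and Cd200r3 beside the 4 already shown, but not Cyp11a1, Gata2, Il6 or Mcpt8. These letters in a window are a description and not a binding site.

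Basophils made up 0.968% of the TG cells (0.707 to 1.29) and 0.220% of the WT cells (0.126 to 0.357). The difference was 0.749 percentage points (0.469 to 1.08), a 4.41-fold higher share in TG. Of the myeloid classes, basophils were 9.83% in TG (45 of 458 cells) and 2.08% in WT (16 of 771 cells). Counted as cells with at least 3 markers the shares were 0.732% and 0.151%. TG was higher in all of these counts, but each genotype is 1 library, so the spread between animals is unknown.

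**Figure D1:**
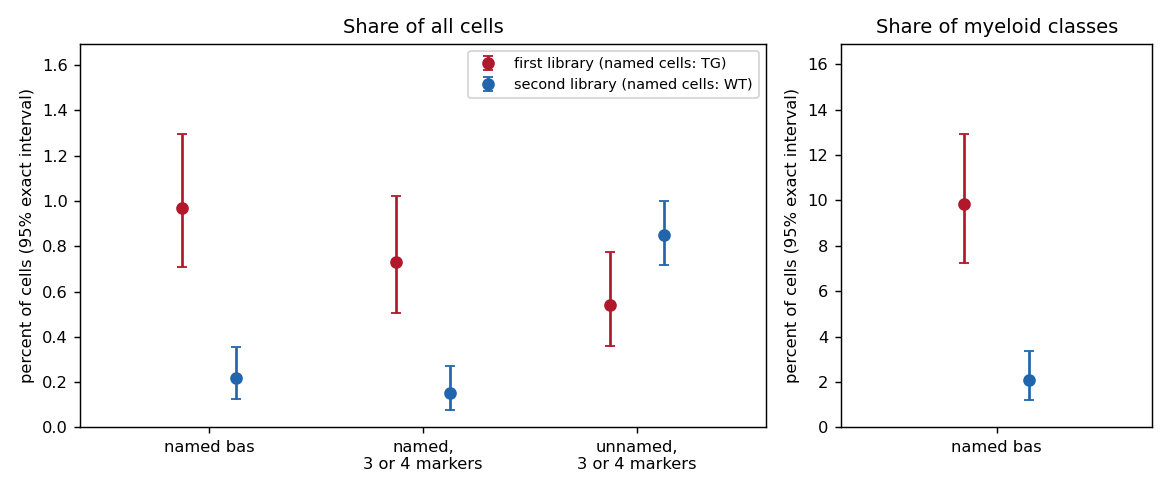
Shares of basophils in percent, first library (TG among named cells) in red and second library (WT) in blue: cells named bas and cells with at least 3 of the 4 markers over all named cells, marker cells among cells without a name, and, on the right, cells named bas over the myeloid classes; points are shares and bars 95% Clopper-Pearson intervals. TG lies above WT in each pair of named cells (0.968% against 0.220% over all named cells), whereas among cells without a name the second library holds the larger share (0.850% against 0.539%).

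Over the other TG cells, 11.3% of 11944 genes with at least 20 UMIs were at least 2-fold higher in TG basophils and 24.7% were at least 2-fold lower. In WT the shares were 12.1% and 14.8% of 12219 genes. The class was made by clustering these same cells, with the genes used not given in the sources used here, so these values describe it and test nothing. The median log2 ratio over all genes was -0.16 in TG, with 3438 genes at 0 UMIs in the basophils. The minimum of 20 UMIs is on the sum of both profiles, and the other TG cells held 18360241 UMIs against 157670. A single basophil UMI can therefore place a rare gene on the higher side, and the shares include such genes. The 10 highest genes by the fixed rule were Ms4a2, C3ar1, Mcpt8, Fcer1a, Prss34, Cpa3, Il6, Gata2, Cd200r3 and Cyp11a1, and the 5 lowest were Camp, Trbc1, Klra7, Cd4 and Tcf7, all with no UMI in TG basophils. The ranks of Prss34 and Cpa3 leaned on 1 cell, without which they stood at 897 and 701 CPM in TG basophils and Cyp11a1 at 924 CPM, against 1.42, 0.436 and 0.436 CPM in the other TG cells. The rank of Mcpt8 leaned on the same cell, which held 333 of its 573 UMIs in TG basophils. Cd4, the gene whose promoter drives the transgene, was also at 0 in WT basophils, and a count of 0 allows a level of up to 19.0 CPM for TG and 69.2 for WT.

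Granule protease genes were unevenly spread over the cells. Of 8 granule genes measured, 5 were higher and 3 lower than in the other TG cells, with a median log2 ratio of 5.47. In WT 4 of 7 were higher and 2 lower, with a median of 1.31. These medians rest on few genes and do not show a lower WT level. The whole list summed to 13002 CPM for TG basophils against 13047 for WT basophils. Without the cell of each genotype with the most Prss34 UMIs, the sums were 6628 against 4926 CPM. Mcpt8 ranged from 0 through a median of 2 to 333 UMIs per TG basophil, and from 0 through 0.5 to 108 in WT. Prss34 was read in only 12 of 45 TG and 2 of 16 WT basophils, with 712 and 237 UMIs in all. A single cell in each library carried most of them: the TG cell held 579 Prss34 and 333 Mcpt8 UMIs, which is 81.3% and 58.1% of the class, and the WT cell 234 and 108, which is 98.7% and 85.7%. Cpa3 was also uneven in TG, where that cell held 89 of 193 UMIs, but not in WT, where the highest cell held 7 of 31. The proteoglycan gene Srgn, whose product packs proteases in granules, was read in 44 and 15 cells at 3247 and 3757 CPM.

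The TG cell with 579 Prss34 UMIs was the deepest of the class (9360 UMIs, 3115 genes) and was not called a doublet. It was the only TG basophil with UMIs of Mpo (26), the myeloperoxidase gene of immature granulocytes, and it held 32 UMIs of Ctsg (cathepsin G), 6 of Ms4a3, 2 of Cd34 and 6 of the cycling gene Mki67. All 66 UMIs of the progenitor list in TG basophils lay in this cell, and so did 29 of 38 UMIs of the cell cycle list. It held no UMI of Il4 or Il6 and 16 of Ccl3, against a median of 45 over the class. The WT cell with 234 Prss34 UMIs had 2 of Ctsg, none of Mpo and 11 of Il6. All 4 progenitor list UMIs and all 5 cell cycle UMIs of WT basophils lay in it, as most did in the TG cell. Both cells lay in the same cluster as the other basophils.

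**Figure D2:**
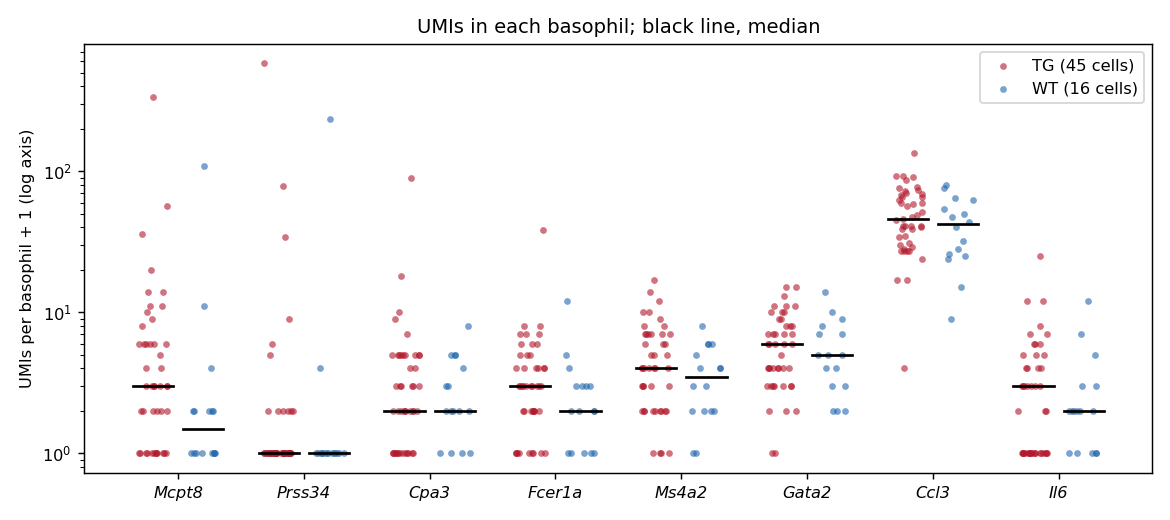
UMIs of Mcpt8, Prss34, Cpa3, Fcer1a, Ms4a2, Gata2, Ccl3 and Il6 in each of the 45 TG (red) and 16 WT (blue) basophils, plotted as UMIs + 1 on a log axis, each point a cell and the black line the median. The highest cell of each genotype stands apart for Prss34 (579 and 234 UMIs) and Mcpt8 (333 and 108), while Gata2 and Ccl3 are spread over nearly all cells.

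IgE receptor genes were read in most cells. Of 17 genes of this pathway, 6 were higher and 2 lower than in the other TG cells, and the median log2 ratio was 0.41. The log2 ratio was 12.58 for Ms4a2 (11.22 to 15.09) and 11.85 for Fcer1a (10.63 to 13.91). Fcer1g, the γ chain that basophils share with other Fc receptors, was read in all 61 cells and was higher by 1.41, but it was no higher than in the TG cells named Mono (1750.5 and 2051 CPM). Lat2, an adaptor below the receptor, stood at 704 CPM and was higher by 2.49, and Gab2, the adaptor that leads to PI3-kinase, at 292 CPM and was higher by 4.88. The kinase genes Lyn and Syk were at 95.1 and 171 CPM and within 2-fold of the other cells (log2 -0.19 and -0.38). The 6 higher genes were thus the 3 chains of the receptor, both of these adaptors and Btk, a kinase gene.

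Receptors for growth factors and alarmins followed. Of 16 cytokine receptor genes, 7 were higher and 4 lower, with a median of 0.93. Csf2rb, the β chain shared by the receptors for IL-3, IL-5 and GM-CSF, was read in 44 of 45 TG basophils (0 to 27 UMIs, median 8) and all 16 WT basophils (3 to 13, median 7). Its level was 2835 and 2559 CPM, against 856 CPM in TG Mono. Csf2rb2, the IL-3-specific copy, stood at 660 and 599 CPM and Il3ra at 178 and 138 CPM. As near copies, Csf2rb and Csf2rb2 may share reads, so their split is uncertain. Csf2ra, which completes the GM-CSF receptor, had only 2 and 1 UMIs in basophils against 658 CPM in TG Mono. The IL-18 receptor genes Il18r1 (558 and 438 CPM) and Il18rap (444 and 461 CPM) and the IL-33 receptor gene Il1rl1 (241 and 300 CPM) were higher than in the other cells in both genotypes. Il4ra, the receptor chain for IL-4, had 4 UMIs in TG and none in WT basophils.

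Of 17 genes of receptors that steer or restrain granulocytes, 12 were higher and 2 lower, with a median log2 ratio of 2.13. Cd200r3, an activating receptor of basophils and mast cells, had 0 to 12 UMIs per TG cell (median 4, 43 of 45 cells) and 0 to 10 per WT cell (median 1.5, 10 of 16 cells). Its log2 ratio over other cells was 11.18 in TG and 9.93 in WT. C3ar1, the receptor of the complement fragment C3a, stood at 444 and 277 CPM, with a single UMI in all other TG cells but 31 in all other WT cells. Cxcr2, a chemokine receptor best known from neutrophils, was at 844 and 484 CPM, below TG Mono (2711 CPM). Ccr2, the MCP-1 receptor, was at 362 and 484 CPM and so above TG Mono (21.7 CPM). Fcgr3 and Fcgr2b, the activating and inhibitory IgG receptors, stood at 311 and 374 CPM in TG. Ptgdr2, the prostaglandin D2 receptor gene, was at 0 in both.

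Histamine and leukotriene genes had 6 of 9 members higher and 1 lower, median 4.03. Hdc, which makes histamine, ranged over 0, 5 and 19 UMIs (lowest, median, highest) in TG and 0, 5.5 and 19 in WT basophils. At 1979 and 2098 CPM it was well above the other TG cells (95.7 CPM) but within counting error of TG Mono (2108 CPM). Slc18a2, the vesicular transporter that loads histamine, separated the classes instead: 39 UMIs in 16 TG and 10 in 7 WT basophils, and none in TG Mono or Neu. The TG level was at least 49.4-fold higher than in Mono. Alox5 and Alox5ap, which start leukotriene synthesis, stood at 539 and 2512 CPM in TG and 323 and 1567 CPM in WT. Ltc4s, which makes leukotriene C4, and Hpgds, which makes prostaglandin D2 in the cyclooxygenase pathway, had no UMI.

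Secreted factors took a large share of the profile. The 20 genes of the cytokine and chemokine list that the files hold summed to 45602 CPM in TG basophils and 43751 in WT basophils. The share was also large in the cells named Mono, where they summed to 26538 CPM in TG and 32656 in WT. Of 16 measured, 10 were higher and 3 lower than in the other TG cells, median 5.04. Ccl3 was read in every basophil, at 3, 45 and 134 UMIs (lowest, median, highest) in TG and 8, 41 and 79 in WT. That is 14372 and 15237 CPM, against 409 CPM in TG Mono. Ccl4 had 1, 33 and 105 UMIs in TG and 3, 26 and 50 in WT. Ccl3 and Ccl4 encode inflammatory chemokines, and both genes were spread over the whole class. Ccl6 was at 11689 and 6362 CPM and Ccl9 at 3222 and 4218 CPM, each a CCR1 ligand. Csf1, the macrophage growth factor, had a median of 5 UMIs in both genotypes (1560.2 and 2028 CPM). Osm, an IL-6 family cytokine, had a median of 5 in TG and 9 in WT, and Hgf, a hepatocyte growth factor, stood at 552 and 207 CPM.

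Il6 had 121 UMIs in 26 of 45 TG basophils against 5 in all other TG cells, and 31 in 11 of 16 WT basophils against 43 in all other WT cells. Outside the class it was thus rarer in TG than in WT (0.272 and 1.94 CPM). The level was 767 and 715 CPM. Il4, the cytokine most tied to basophils, had 37 UMIs in 20 TG cells (0 to 5 per cell) and 12 in 7 WT cells (0 to 3), or 235 and 277 CPM. Its log2 ratio over other cells was 5.19 (4.60 to 5.72) in TG and 3.29 (2.28 to 4.05) in WT. Il13 had 4 and 1 UMIs, and Il5, Csf2 and Areg none. When each cell was thinned to 1000 UMIs, Il4 was read in 17.8% of TG and 31.2% of WT basophils (44.4% and 43.8% unthinned) and Il6 in 35.6% and 50% (57.8% and 68.8%), so most cells without a UMI of these genes cannot be called negative.

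**Figure D3:**
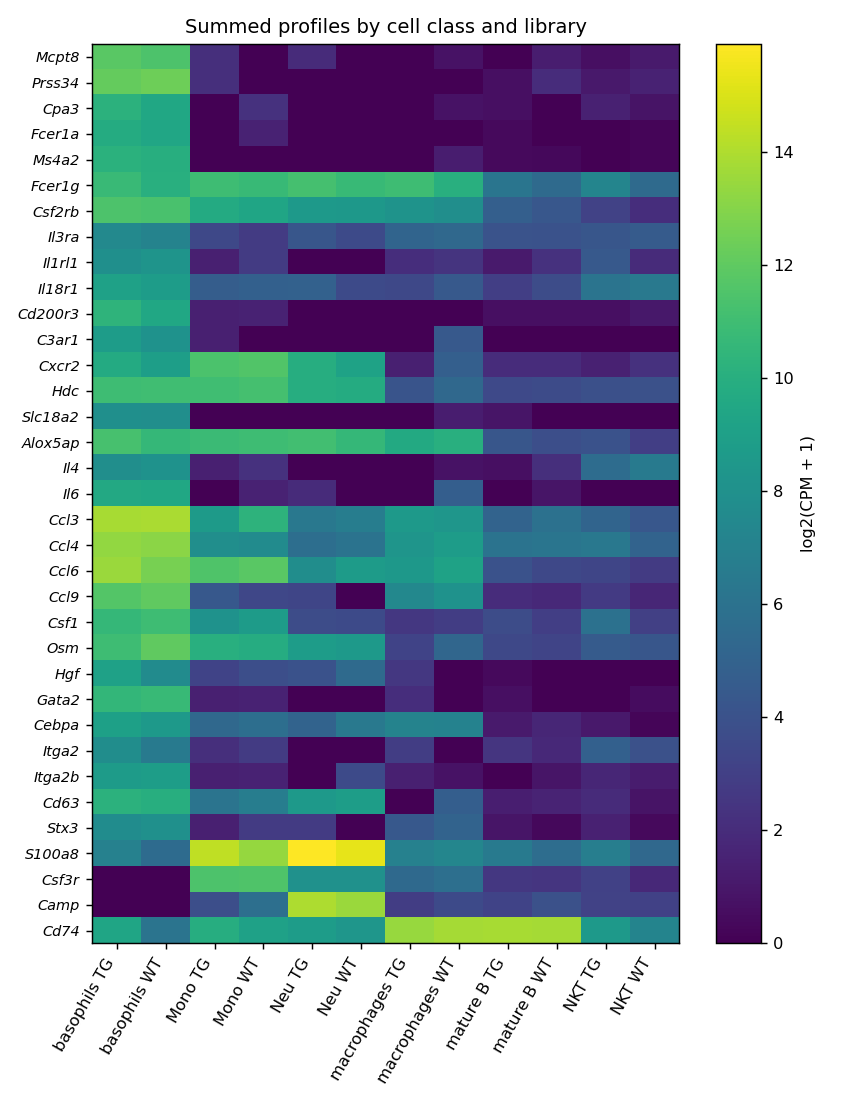
Levels of named genes (one per line) as log2(CPM + 1) on a colour scale in the summed profiles of basophils, Mono, Neu, macrophages, mature B and NKT cells, TG and WT, with genes ordered by role. Both basophil columns share their high genes (Gata2 at 1484 and 1706 CPM, Ccl3 at 14372 and 15237 CPM), and the other columns are dark for Ms4a2, Fcer1a, Cpa3 and Cd200r3 but not for Hdc or Fcer1g.

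Among transcription factors, 10 of 21 were higher and 4 lower, median 1.09 (0.85 with genes at 0 set to their bound). Gata2 was read in 43 of 45 TG basophils (0 to 14 UMIs, median 5) and in all 16 WT basophils (1 to 13, median 4), at 1484 and 1706 CPM. All other TG cells together had 11 UMIs of it. Cebpa, which acts with Gata2 in the choice between basophil and mast cell fate, stood at 520 and 392 CPM and Runx1, needed for basophil formation, at 577 and 392 CPM. Tal1 (133 and 184 CPM) and Gata1 (101 and 46.1 CPM) were lower in level and rare outside the class among TG cells, with 5 and 11 UMIs in all others. Mitf, the factor of the mast cell lineage, had no UMI. Irf8, a factor of monocytes and B cells, had 2 UMIs in each genotype.

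Of 12 immediate early genes, 10 were above the other TG cells and none below, median 2.50. Against Mono 4 were higher and 2 lower, median 0.29, while of all genes 25.8% were higher and 20.8% lower. The direction against Mono was thus mixed, as it was over all genes. Egr1, a factor induced within minutes of many stimuli, had 0, 32 and 126 UMIs in TG and 14, 53 and 82 in WT basophils. Its level was 10592 and 19132 CPM, against 2181 CPM in TG Mono and 391 CPM in the other TG cells. Fos (6355 CPM) and Jun (8626 CPM) in TG basophils were within counting error of WT for Fos (log2 -0.08) and slightly lower for Jun (-0.28). The 12 genes together held 63925 CPM of TG and 77014 CPM of the WT profile.

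Adhesion genes were mixed, with 5 of 15 higher and 1 lower, median 0.53. Itga2, the α2 integrin chain that CD49b antibodies see, stood at 222 and 92.2 CPM, Itga2b at 431 and 461 CPM and Cd9, a tetraspanin, at 894 and 599 CPM. Of 12 exocytosis genes, 5 were higher and none lower. Cd63, the granule membrane protein used to follow degranulation, was at 1199 and 991 CPM, against 68.4 CPM in TG Mono, and Stx3, a syntaxin of granule fusion, at 216 and 254 CPM, against 1.67 CPM.

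Of 9 genes of antigen presentation on MHC class II, none was higher and 7 were lower than in the other TG cells, which include B cells and macrophages, median -2.58. Of the 4 measured against TG Mono none passed 2-fold (median -0.31), nor did any of 4 against TG Neu (median 0.62). In WT, by contrast, 4 of 5 were lower than in Mono (median -1.79, or -1.03 with genes at 0 set to their bound). The 1 measured against WT Neu was lower. The summed list stood at 1446 CPM in TG basophils, or 917 CPM without the cell called a doublet, and at 184 CPM in WT basophils. Cd74, the invariant chain, had a level of 666 CPM in TG basophils and 69.2 in WT basophils, against 4331 CPM in the other TG cells. Of the TGF-β receptor and Smad genes, none of 8 was higher and 3 were lower than in the other TG cells, and in WT 1 of 8 was higher and 5 lower. Over all genes 24.7% were lower in TG and 14.8% in WT. The list held only 54 UMIs in TG and 15 in WT basophils, at 342 and 346 CPM. Its median was -0.44 in TG and -1.17 in WT, or -0.30 in WT with genes at 0 set to their bound. Tgfbr2 had 11 UMIs in TG and 2 in WT basophils, too few to compare the genotypes. The interferon list had 4 of 18 higher and 3 lower with a median of -0.08, close to all genes, and Ifitm1, which encodes an antiviral membrane protein, was its leading gene at 5543 CPM in TG. Of 11 survival genes, 2 were higher and 5 lower (median -0.58, or -0.12 with genes at 0 set to their bound), among the higher Pim1, a kinase gene below the IL-3 receptor, at 3089 and 2121 CPM.

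Against the cells named Mono, 25.8% of 4341 genes were higher in TG basophils and 20.8% lower. In WT the balance was the other way round, with 21.1% of 3584 genes higher and 24.2% lower. The highest were Cpa3, Ms4a2, Fcer1a, Prss34 and Il6, of which Cpa3 was at least 244-fold, Ms4a2 at least 232-fold and Fcer1a at least 180-fold above a class with no UMI of them. The places of Cpa3 and Prss34 rested on 1 cell: without it Cpa3 was at 701 CPM and Prss34 at 897 CPM, both below Ms4a2 at 1173 CPM. The lowest were Csf3r, Wfdc17, 2900055J20Rik, Mmp8 and Trem1, all genes with at most 5 UMIs in TG basophils. The names of the compared classes need care. Mono cells carried Csf3r, the G-CSF receptor gene of neutrophils, at 2857 CPM and S100a8 at 21352 CPM, and the monocyte gene Ccr2 at only 21.7 CPM, so they went against their name and are called by it only as the table does. Of the interferon list, 1 gene was higher and 12 of 18 were lower in TG basophils than in these cells (median -1.35), whereas in WT 4 were higher and 6 lower (median -0.06). Of the chemoattractant and regulatory receptors 4 were higher and 6 lower of 13. Of the cytokine list 8 were higher and 4 lower of 14, the lower ones including Il1b (57.1 against 8461 CPM) and Cxcl2 (469 against 12732 CPM). With TMM scaling the split of genes past 2-fold moved from 1121 higher and 903 lower to 540 and 1403, and the median log2 ratio of all genes from 0.25 to -0.36.

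Against the cells named Neu, of which there were 54 in TG and 17 in WT, 29.1% of 3380 genes were higher in TG basophils and 18.5% lower. In WT 25.4% of 1145 genes were higher and 22.2% lower. Prss34, Gata2, Cd200r3, Cpa3 and Mcpt8 led, with Prss34 at least 507-fold, Gata2 at least 167-fold and Cd200r3 at least 148-fold higher. The places of Prss34, Cpa3 and Mcpt8 leaned on 1 cell: without it their TG levels were 897, 701 and 1618 CPM, against 1497 CPM for Gata2 and 1173 CPM for Ms4a2. Camp, Ngp, Lyz2, Mmp8 and Chil3, genes of neutrophil granules and of immature granulocytes, were lowest: Camp stood at 15670 CPM and Ngp at 40016 CPM in Neu, with 0 and 2 UMIs in TG basophils. Lyz2, the myeloid lysozyme, had 1 UMI in basophils of each genotype. Immediate early genes were higher in 11 of 12 cases and granule genes in 6 of 7. With TMM scaling the split moved from 984 higher and 624 lower to 573 and 927, and the median from 0.35 to -0.19.

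Between the genotypes, 1783 genes had at least 20 UMIs over both basophil profiles. TG was at least 2-fold higher for 9.76% of them (174 genes) and lower for 5.16% (92 genes), and the median log2 ratio of all was 0.04. With TMM scaling the numbers were 254 and 40 and the median 0.28, so the balance of directions depends on the scaling. Several genes that define the class were close between the genotypes, and others were higher in TG. The log2 ratio of TG over WT was -0.21 for Gata2 (-0.58 to 0.20), 0.21 for Ms4a2 (-0.26 to 0.74), 0.36 for Fcer1a (-0.20 to 1.00), 0.14 for Csf2rb (-0.15 to 0.46) and -0.09 for Hdc (-0.43 to 0.27). For Ccl3 it was -0.09 (-0.21 to 0.04) and for Il4 -0.28 (-1.21 to 0.84), an interval wide enough to hold a 2-fold difference. Cd200r3 (0.86, 0.34 to 1.48) and Cpa3 (0.76, 0.22 to 1.37) were higher in TG, short of 2-fold. Cd200r3 was also read in a larger share of TG cells, 71.1% against 37.5% when thinned to 1000 UMIs (95.6% and 62.5% unthinned). Within the functional lists, none of 7 measured cytokine receptor genes and none of 12 immediate early genes passed 2-fold. Of the granule list 1 of 6 was higher, of the transcription factors 3 of 13 were higher and 1 lower, and of the cytokines 2 of 11 were higher and 2 lower. The MHC class II, adhesion and interferon lists are given below.

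Prss34 and Mcpt8 leaned on the cell of each genotype described above, and Cpa3 on that of TG. Prss34 had 4516 CPM in TG basophils and 5463 in WT basophils, a log2 ratio of -0.28 (-0.49 to -0.06). Without the highest cell of each genotype it was 3.29 (1.93 to 5.81), since 133 UMIs remained in TG and 3 in WT. For Mcpt8 the ratio went from 0.32 (0.04 to 0.61) to 1.74 (1.09 to 2.56), or 1618 against 472 CPM. For Cpa3 it went from 0.76 to 0.13. The direction for Prss34 therefore turned with 1 cell per library. Without those cells its ratio still rested mostly on few TG cells, and that of Mcpt8 did so in part. Among the 133 Prss34 UMIs, 77 and 33 lay in single TG cells, which also held 56 and 35 UMIs of Mcpt8. At least 20 Prss34 UMIs were read in 3 TG cells, with 96.8% of the TG total, and in 1 WT cell.

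The 5 genes highest in TG over WT by the fixed rule were Igkc, Cd74, Aldh2, Itgam and Crip1. Igkc, the antibody κ chain gene of B cells, had 164 UMIs in 39 of 45 TG basophils and 4 in 4 of 16 WT basophils, a log2 ratio of 3.33 (2.11 to 5.39). It was also higher in TG than in WT in Mono (2.57) and in the other cells (0.96). Cd74 had 105 UMIs in 35 TG cells and 3 in 1 WT cell, a ratio of 3.05 (1.68 to 5.57), with 0.80 in Mono and 0.04 in the other cells. With cells thinned to equal depth, Cd74 was read in 44.1% of TG and 15.1% of WT Mono. In basophils these shares were 44.4% in TG and 0% in WT. All 4 MHC class II genes measured were higher in TG, and so were all 3 measured genes of the B cell list, whose sum was 1554 CPM (0 to 105 UMIs per cell) in TG basophils and 254 CPM (0 to 3 per cell) in WT. The highest of these TG cells, the one called a doublet, held 48 UMIs of Igkc, 15 of Cd79a, 6 of Ms4a1, 34 of Cd74 and 18 of H2-Ab1 beside 2 of Mcpt8 and 5 of Fcer1a. Without it the ratios were 2.88 for Igkc and 2.54 for Cd74, the sum of the B cell list in TG was 917 CPM, and only 1 gene of that list and 3 of the MHC class II list still had enough UMIs to compare, all higher in TG. The summed MHC class II list was also higher in TG than in WT in Mono (1886 and 978 CPM) and Neu (964 and 684 CPM). The same held in NKT cells (762 and 289 CPM) and mature B cells (30467 and 26189 CPM). In macrophages it was lower in TG (28060 and 33003 CPM). The difference was thus not confined to basophils. The part of B cell RNA in the basophil values was not tested.

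The other 3 were enzymes and surface or cytoskeletal genes. Aldh2, a mitochondrial aldehyde dehydrogenase gene, had 0 to 4 UMIs in TG (34 of 45 cells) and 0 to 1 in WT (4 of 16 cells), a ratio of 1.79 (0.51 to 3.87). Itgam, the CD11b chain, had 55 UMIs in 26 TG and 4 in 4 WT cells, a ratio of 1.76 (0.48 to 3.85). Crip1, a LIM protein gene, had a ratio of 1.69 (0.73 to 3.02) and one of 1.74 in Mono. Adhesion genes as a list had 4 of 13 higher and none lower, median 0.55, while of all 1783 genes 9.76% were higher and 5.16% lower. Hgf had a ratio of 1.34 (0.42 to 2.59) and Ccl6 one of 0.88 (0.69 to 1.07), which is short of 2-fold.

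The 5 lowest in TG were Ptgs2, Ccnd2, Irf1, Cxcl2 and Anp32b. Ptgs2, the inducible cyclooxygenase gene, had 55 UMIs in 10 of 45 TG cells (highest 22) and 51 in 7 of 16 WT cells (highest 18), a log2 ratio of -1.75 (-2.33 to -1.17). It was also read in a smaller share of TG than of WT Mono. These shares were 29.9% and 51.2% with cells thinned to equal depth, and 41.2% and 58.5% unthinned. Cxcl2, a neutrophil chemokine gene, was read in 11 TG and 7 WT basophils and had a ratio of -1.36 (-1.88 to -0.81). In thinned Mono it was read in 95.1% of TG and 95.3% of WT cells. In a stricter set of only 3 TG and 6 WT basophils both directions turned (0.38 for Ptgs2 and 1.58 for Cxcl2). In basophils of both genotypes these inducible genes were thus not read in most cells and high in a few. Irf1, an interferon-induced factor gene, had a ratio of -1.63 (-2.16 to -1.09), with 18 of the 57 WT UMIs in 1 cell, and it went the other way in Mono (1.46). Ccnd2, a cyclin gene, had -1.64 (-2.32 to -0.96) and Anp32b -1.29 (-2.14 to -0.38). Osm had 1998 CPM in TG basophils against 4149 in WT, a ratio of -1.06 (-1.32 to -0.78), against 0.17 in Mono. Egr1 had -0.85 (-0.97 to -0.73), less than 2-fold and near its ratio in Mono (-1.13) and in the other cells (-0.67).

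Ifitm1 was the interferon list gene with the most UMIs that passed 2-fold: 0, 17 and 69 UMIs per TG basophil against 0, 6 and 21 in WT, a log2 ratio of 1.07 (0.79 to 1.37). It was higher still in Mono (1.99) and in the other cells (2.33), so the difference was not confined to basophils. Of the list 5 of 13 were higher and 1 lower, beside 9.76% and 5.16% of all genes. The T cell list, by contrast, was higher in WT basophils (1245 against 311 CPM), with 22 of its 54 UMIs in 1 cell. It was also higher in WT in Mono (1112 against 706 CPM), Neu (706 against 258 CPM) and mature B cells (1249 against 538 CPM). In macrophages it was lower in WT (577 against 873 CPM).

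**Figure D4:**
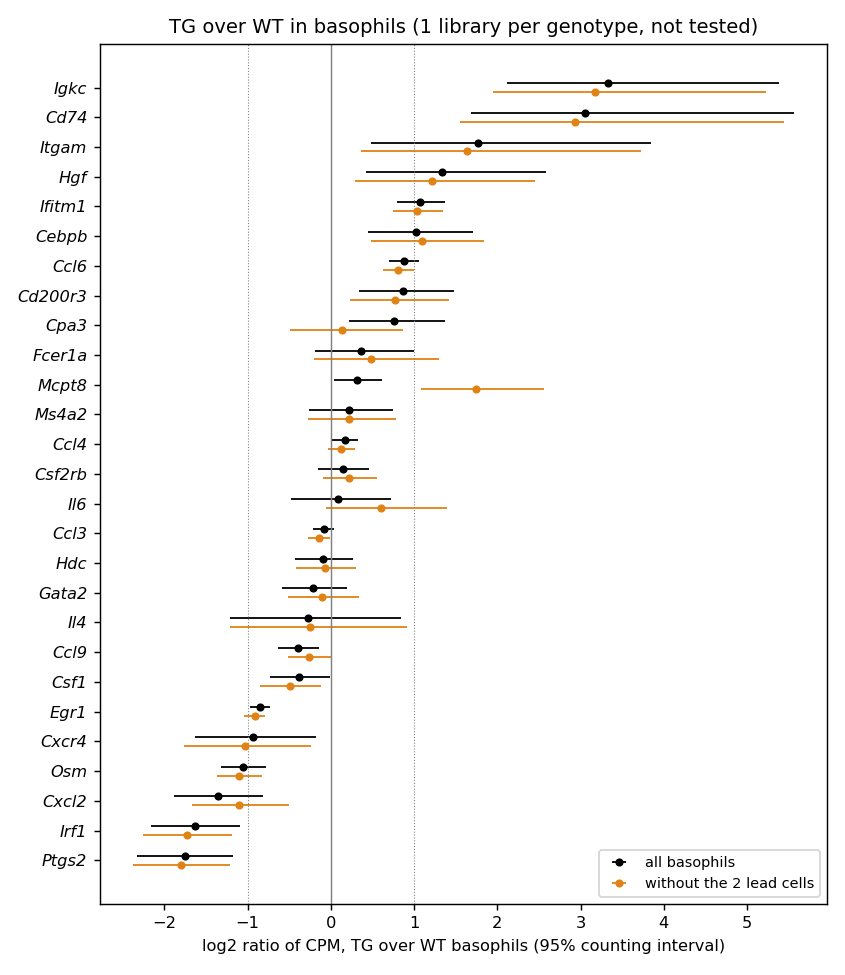
Log2 ratio of CPM, TG over WT basophils, for named genes, with 95% intervals for counting error, over all basophils (black) and without the cell of each genotype with the most Prss34 UMIs (orange); dotted lines mark 2-fold. Igkc and Cd74 lie highest (3.33 and 3.05) and Ptgs2 lowest (-1.75), Gata2 and Ccl3 lie near 0, and Mcpt8 moves from 0.32 to 1.74 without those cells.

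Surface antibody counts gave a second readout, although the published account of the cell types drew on surface proteins too, so these values are not independent of the class. Values are centred log ratios, on a natural log scale relative to the geometric mean of the 49 antibodies in that cell. A difference on this scale is not a fixed fold. CD41 was 2.25 above the other TG cells, against a log2 ratio of 4.93 by share of antibody counts. CD138, CD366, Ly-6G and TIGIT had a difference of 0 in every comparison. CD49b had a median of 3.43 in TG and 3.29 in WT basophils, against 0.24 in TG Mono, 0.22 in TG Neu and 0.78 in the other TG cells. CD9 was at 4.23 and 4.42 (other TG cells 0.52), CD16/CD32, the IgG receptors, at 3.98 and 3.92 (0.77), and CD41, the product of Itga2b, at 2.38 and 2.34 (0.13). TG basophils were 1.97 and 1.55 above TG Mono and Neu for CD9, and 1.56 and 1.10 above them for CD16/CD32. For CD41 the gaps were 1.04 and 1.201, so all 3 stood out less against these classes. These 3 and CD49b were the 4 of 49 antibodies more than 1 above the other TG cells. CD49d and CD43, at 1.27 and 1.06 less, were more than 1 below. In WT the same 4 antibodies and CD49a (1.36) were more than 1 above the other WT cells, while CD5 (-1.76) and CD90.2 (-1.36) were more than 1 below and CD49d (-0.75) and CD43 (-0.52) were not. CD41 is best known from platelets, and the 6 platelet genes of the list other than Itga2b had no UMI in basophils. CD49a was at 1.80 and 1.91, CD44 at 3.58 and 3.42, below TG Mono (5.03), and CD172a at 1.03 and 1.09, also below TG Mono (2.51). Between the genotypes no antibody of 49 differed by 1 or more on this natural log scale. The differences above 0.5, TG minus WT, were -0.68 for CD43, -0.58 for CD200 and 0.56 for CD357.

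The lowest basophil of both genotypes had 1.74 for CD49b, 2.44 for CD9 and 2.78 for CD16/CD32. Of the other named cells 1504, 366 and 364 lay at or above each of these values, but only 4 (0.0337%) lay at or above all 3. These bounds were set on the same cells after their values were seen, so they describe how compact the class is and are no gate tested elsewhere.

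**Figure D5:**
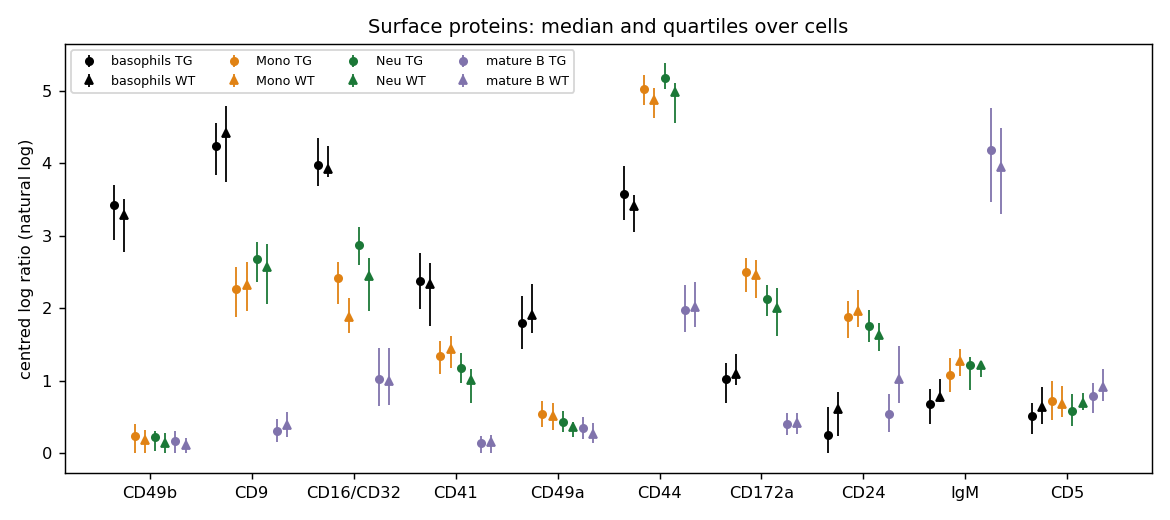
Centred log ratio (natural log) of 10 antibodies in basophils, Mono, Neu and mature B cells, circles for TG and triangles for WT; points are medians and bars the quartiles over cells. CD49b, CD9, CD16/CD32 and CD41 are higher in basophils (medians 3.43, 4.23, 3.98 and 2.38 in TG) than in the other classes shown, CD44 is lower than in Mono and Neu, and TG and WT basophils lie close together for the 4 first named.

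Across 25 profiles of a class in a genotype with at least 20 cells, the genes most like Mcpt8 by the Pearson correlation of log2(CPM + 1) were Ms4a2 (0.933), Cd200r3 (0.929), Fcer1a (0.916), Prss34 (0.904) and Cyp11a1 (0.900). These profiles share libraries, and the 16 WT basophils fell below the size limit, so TG basophils were the single basophil profile among them. Cyp11a1, which encodes the enzyme that starts steroid synthesis, had 139 UMIs in 40 of 45 TG basophils (0 to 8 per cell, median 3) and 25 in 10 of 16 WT basophils, and 8 in all other TG cells. Its ratio between the genotypes was 0.59 (-0.01 to 1.29).

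Cells that were called in the libraries but are not in the deposited cell table offered basophil markers a second time, in cells to which the table gives neither a class nor a genotype. At least 3 of the 4 markers were read in 29 of 5379 such cells of the first pool (0.539%, 0.361 to 0.773) and in 143 of 16829 of the second (0.850%, 0.717 to 1.00). Their genotype is not given in the sources used here, so the 2 genotypes of a pool cannot be told apart in them, and having been chosen by the markers they support no statement on those 4 genes. The marker cells were a mixed set. In the second pool they held 3616 UMIs of the eosinophil list (6020.4 CPM), up to 1754 in a single cell, against 16 in TG basophils, and Prg2, an eosinophil granule gene, was read in 4 of the 143 cells. In the first pool all 23 mast cell UMIs lay in 1 cell. They were compared with the cells without a name that had none of the 4 markers (5292 and 16512 cells), so cells with 1 or 2 markers were left out. Against these, 10.7% of 12426 genes were higher and 20.7% lower in the first pool, and 11.4% of 13742 higher and 18.2% lower in the second. Leaving out the 4 markers, 718 genes were higher both in TG basophils and in the marker cells of the second pool, which is 53.4% of the former, where 9.83% of all genes measured in both were higher in the marker cells, and 61.5% of the latter. For the first pool the shared genes numbered 688, or 51.8% and 55.1%. With WT basophils, whose profile is smaller, the overlap was lower: 566 genes with the second pool (38.3% and 46.1%) and 564 with the first (38.4% and 44.9%). Of the genes lower in TG basophils, 41.1% were also lower in the marker cells of the second pool and 47.5% in those of the first, and for WT basophils 31.1% and 39.3%. Gata2 stood at 1971 and 1739.8 CPM in the first and second pool, Ccl3 at 11508 and 11172, Csf2rb at 1986 and 2030, Hdc at 1513 and 1756, Il6 at 487 and 738 and Il4 at 138 and 183, each within 2-fold of its level in TG basophils. Prss34 was again uneven: of the 143 cells, 19 (13.3%, 8.19 to 20) had at least 20 UMIs and together held 97.9% of its UMIs. Mpo was read in 14 of these 19 cells and in 3 of the other 124, and Mki67 in 8 and 7, at median depths of 9008 and 2967 UMIs per cell. In the first pool 3 cells had at least 20 Prss34 UMIs, and Mpo was read in 1 of them and in 1 of the other 26. Among named basophils, 3 TG cells and 1 WT cell reached 20 Prss34 UMIs, and Mpo was read in 1 of the 3 and not in the WT cell.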

How the data were processed

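Cells of 2 pooled libraries were measured by whole transcriptome and antibody sequencing. The deposited UMI counts per gene and antibody were made by the authors with the BD Rhapsody pipeline (version 1.9 per the file headers) on mm10. Antibody counts and RNA counts were used as deposited, and names, clusters and genotypes were taken from the cell table, in which the authors also gave the percent of mitochondrial UMIs of each cell. Cells were stained with sample tags per the labels. The rule that turned tags into a genotype, and the filter on cells, are not given in the sources used here. The 2 normalised tables were not used. Against the library counts, 223 genes with UMIs in TG basophils (0.252% of their UMIs) were absent from the authors' filtered count table or set to 0 there. In WT basophils these were 81 genes (0.277%).

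UMIs were summed per class and genotype (Python 3.11.15, numpy 2.4.6, scipy 1.17.1, pandas 2.3.3) and divided by the total of the profile. Genes with at least 20 UMIs over both profiles were compared. A gene was counted as past 2-fold when its ratio passed 2-fold both with 0.5 UMI added to each sum and without it. The plan named only the first condition, and the second was added after the data were seen, because the added 0.5 UMI placed genes with no UMI in the small basophil profile above the other cells. Shares have Clopper-Pearson intervals, their difference a Newcombe interval, levels exact Poisson intervals and ratios exact conditional binomial intervals. All are 95% and cover counting error only. Against a class with no UMI a fold is taken at 3 UMIs in that class, which is also the limit used for a count of 0. Because cells are not replicates and each genotype is 1 library, no test was run. The step was checked on simulated data.

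Named genes were the members of 14 functional lists and 15 marker lists, the 10 highest and 5 lowest over the other TG cells, and the 5 highest and 5 lowest over Mono, over Neu and for TG over WT, among genes with at least 50 UMIs and, for the higher group, UMIs in at least 5 basophils. Against other classes the direction had to hold in WT too, and receptor segments, mitochondrial and sex genes were left out. The 5 genes most like Mcpt8 were also named. The class, its members and the lists were chosen with earlier results of these data known. The cells with the most Prss34 UMIs, the cell with B cell transcripts and the cell without markers were picked out once their counts were known.

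Doublets were kept, since Scrublet (scanpy 1.11.5, expected share 5%) called 0.818% of TG and 3.25% of WT cells. The libraries shared 267 cell numbers, and 2 basophils had a number that also occurs in the other library. Alternatives were the filtered table, TMM (edgeR 4.0.16 in R 4.3.3), totals without ribosomal protein and mitochondrial genes, equal weight per cell, other count minimums, stricter sets of basophils, removal of doublet calls, and thinning of each cell to 1000 UMIs, which left out no basophil. Promoter windows came from RefSeq on GRCm38.p6.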

Additional observations from a re-analysis of the deposited data

Results flagged for a closer look

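Irf1 and Igtp, genes induced by interferon, differed in opposite directions between basophils and Mono of the 2 genotypes. The log2 ratio of basophils over Mono was -1.63 for Irf1 in TG (-2.02 to -1.28) and 1.46 in WT (1.01 to 1.87), and for Igtp it was -2.68 in TG (-4.45 to -1.55) and 1.80 in WT (0.40 to 2.90). Irf1 stood at 425 CPM in TG basophils and 1324 CPM in TG Mono, but at 1314 and 481 CPM in WT. Igtp rested on 5 UMIs in TG and 8 in WT basophils. With 1 library per genotype the difference was not tested.

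Basophil markers were also read in cells that the comparisons of named classes do not use. Cells with at least 3 of the 4 markers were 0.539% of the cells without a genotype name in the first pool and 0.85% in the second, while no named cell outside the basophil class had 3 of them.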

How the results depend on the processing

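The share of basophils differed by 0.749 percentage points over all named cells and by 7.75 points over the myeloid classes, whose denominator is smaller. Past 2-fold were 2024 genes against Mono, 1608 against Neu, 4305 against the other TG cells and 266 between the genotypes. A minimum of 50 UMIs gave 1066 against Mono, 748 against Neu and 62 between the genotypes, and a minimum of 1 UMI gave 5558, 6231 and 3109. Thinning to 1000 UMIs gave 993, 457 and 79, with fewer genes reaching the minimum. Basophils with at least 3 markers and at most 1 UMI of B or T cell markers were only 3 TG and 6 WT cells, and gave 963 against Neu, 1889 against the other cells and 44 between the genotypes. Leaving Igkc out of that limit, and dropping the minimum of 3 markers as well, kept 25 TG and 10 WT cells and gave 146 between the genotypes. With the pseudocount ratio alone the counts were 2044, 1611, 4980 and 271. TMM turned 55.4% higher of the genes past 2-fold against Mono into 27.8%, 61.2% against Neu into 38.2%, and 65.4% between the genotypes into 86.4%.

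With the 3 and 6 cells, directions turned over Mono for Il18rap (-0.050), Irf8 (0.40), Klra7 (0.58) and Ptgs2 (1.06), over Neu for Cd79a (-0.25) and Cxcl2 (1.198), over the other cells for Cd14 (0.90), Cma1 (1.36), Csf2 (3.13), Tgfbr2 (0.054) and Trem1 (0.32), and between the genotypes for Cxcl2 (1.58) and Ptgs2 (0.38). Cd14, Cma1, Csf2, Klra7 and Trem1 had no UMI in TG basophils, so these signs come from the pseudocount. Cd79a over Neu also turned without doublet calls (-0.65) and with the limit other than Igkc (-1.93), which both leave out the cell with B cell transcripts, and Csf2 with thinning (0.57). For the others the cause was not tested. The limit other than Igkc, the removal of the cell with the most Prss34 UMIs and the pseudocount ratio alone were chosen after seeing the data. No paired analysis was possible because each genotype is 1 library. Depth limits WT most: with 43382 UMIs in the profile, a count of 0 still allows 69.2 CPM.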
